A study of Rattus norvegicus with 10 samples.

Results

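Molecular chaperones and protein disulfide isomerases were compared between rat pancreatic islets that received an adenovirus carrying hamster Nkx6.1 and islets that received a control adenovirus. The genes were those whose symbol in the array's annotation began with Hsp followed by a letter from a to h or a digit, with Dnaj, with Pdia, or with Cct followed by a digit. Of 61 such genes, 54 had a value in at least 3 samples of each group, out of 9974 genes measured that well, and they were read by 61 probes. They comprised 12 chaperones and disulfide isomerases of the endoplasmic reticulum (ER), 31 cytosolic chaperones, 5 mitochondrial ones, 2 nuclear ones (Dnajc8 and Dnajc9) and Dnajc4, which was not placed. The other 3 were taken in by their letters alone and are not chaperones: Hspbap1, Hspc105, now named Sdr42e1, and Hspc159, now named Lgalsl.

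Islets hold the endocrine cells of the pancreas, and Nkx6.1 is a homeodomain transcription factor of the insulin-producing β cell. Islets of male Sprague-Dawley rats of about 250 g were cultured at 8 mM glucose, about 200 islets per condition, exposed for 18 h to AdCMV-Nkx6.1 or to AdCMV-βGAL, which carries bacterial β-galactosidase, and kept for a further 60 h. Each group (Nkx6.1 and bGAL) held 5 samples from independent islet isolations. Every control islet therefore also received a virus with the same CMV promoter, which is not restricted to one cell type, and no islets without virus were analysed here.

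Chaperones bind unfolded proteins and help them reach their native shape. HSP70 proteins take up hydrophobic stretches with the help of J-domain proteins (the DNAJ family), HSP90 proteins act on later folding stages, small heat shock proteins hold unfolded clients, and the CCT ring (TRiC) encloses actin, tubulin and other cytosolic proteins. In the ER, the HSP70 protein BiP (gene Hspa5) and the protein disulfide isomerases fold secreted proteins, and β cells load this machinery with proinsulin, which needs disulfide bonds. Unfolded protein in the ER raises ER chaperone genes through the ER stress element, whereas unfolded protein in the cytosol raises other chaperone genes through heat shock factors and the heat shock element.

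The promoters of the members were searched for both elements, and a few are printed because the ER and cytosolic genes are compared below. A RefSeq promoter window (GRCr8, 250 bases before to 50 after the start of transcription) was found for 45 of the 54 genes. The ER stress element was searched on both strands as CCAAT, any 9 bases and CCACG, and stood in 22 of 33469 promoters of this length (0.0657%). It was present in 2 of the 10 ER members with a window, Hspa5 and Dnajc3, and in 0 of 28 cytosolic members. Its shorter form, ATTGG, any 1 base and CCACG, stood in 17 promoters (0.0508%), among them Dnajb11. The heat shock element, searched on both strands as GAA, any 2 bases, TTC, any 2 bases and GAA, stood in 267 promoters (0.798%) and in 5 members, the cytosolic Hspa8, Dnaja1 and Cct4 and the mitochondrial Hspd1 and Hspe1. It stood in 0 of the 10 ER windows. A match is only a description of these letters. The matched letters, each 5′ to 3′ on the strand of its gene and wholly in capitals, were as follows, with the position of the first base counted from the start of transcription.
Hspa5, ER stress element from −43: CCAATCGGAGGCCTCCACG
Dnajc3, ER stress element from −133: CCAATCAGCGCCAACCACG
Dnajb11, short form from −10: ATTGGCCCACG
Hspa8, heat shock element from −213: GAAAGTTCCAGAA
Hspa8, heat shock element from −55, read on the other strand: TTCTGGAAGGTTC
Dnaja1, heat shock element from 10: GAACTTTCCAGAA
Cct4, heat shock element from 26, read on the other strand: TTCTGGAAGGTTC

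The Hspa5 promoter is printed in full as that of the best known ER stress target. It lies at chr3:38452766-38453015 on the plus strand, and the capitals mark the ER stress element.
Hspa5: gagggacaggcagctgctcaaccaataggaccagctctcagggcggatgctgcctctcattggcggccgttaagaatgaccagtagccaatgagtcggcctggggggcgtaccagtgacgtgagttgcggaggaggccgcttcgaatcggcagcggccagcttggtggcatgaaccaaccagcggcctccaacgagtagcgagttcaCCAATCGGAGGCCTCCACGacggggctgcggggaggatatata

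Hspd1 and Hspe1, which encode the mitochondrial chaperonin HSP60 and its lid HSP10, lie head to head, and their windows overlap. The 250 bases before Hspe1, at chr9:64084077-64084326 on the plus strand, hold overlapping matches to the heat shock element, marked in capitals, and the same bases were matched from the Hspd1 side.
Hspe1: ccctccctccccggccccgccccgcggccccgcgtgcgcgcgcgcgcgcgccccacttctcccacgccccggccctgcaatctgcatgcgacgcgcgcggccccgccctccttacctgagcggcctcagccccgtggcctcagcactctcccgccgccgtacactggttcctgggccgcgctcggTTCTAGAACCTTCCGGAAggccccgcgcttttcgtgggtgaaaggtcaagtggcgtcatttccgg

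Each islet sample was labelled with Cy5 and hybridised on its own two-colour array against one rat reference RNA labelled with Cy3. A value is a log2 ratio from which each probe's own median across samples has been taken, so it gives differences between samples and no level, and the islet markers could not be used to check the tissue by level. A positive ratio is taken to mean more signal from islet than from reference RNA, a direction that is likely and that no source used here states. In bulk RNA, fewer cells of a type and less RNA per cell cannot be told apart. In 5 arrays (bGAL replicates 1, 2, 3 and 5 and Nkx6.1 replicate 1, called array set 1) between 27.3% and 32.5% of probes had no value, and in the others (bGAL replicate 4 and Nkx6.1 replicates 2 to 5, array set 2) between 0.816% and 9.13% had none, so the set and the group can be told apart only through 1 sample in each set. This split was found after the values were seen. Nkx6.1 replicate 2 stood apart, with an interquartile range over probes of 1.09 against 0.347 to 0.580 in the other arrays, and its values are given with and without it. The probe for endogenous rat Nkx6-1 differed by −0.56 ± 0.29 (SE, limma adjusted p = 0.546), and since the virus carried the hamster gene it does not check the labels.

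None of the 54 genes passed the test of Nkx6.1 against bGAL. The test was limma's moderated test with Benjamini-Hochberg adjustment over all 9974 genes and a threshold of 0.05, and all differences below are Nkx6.1 minus bGAL on the log2 scale. Over all genes it called 15, which is 0.150% of those tested (11 rose and 4 fell), and the smallest adjusted p among the chaperones was 0.296. The signs leaned downwards, with 17 genes higher and 37 lower, 68.5% lower against 54.5% of all genes. The median difference was −0.14, against −0.052 for all genes. Without Nkx6.1 replicate 2 the split was 25 higher and 29 lower with a median of −0.019, against −0.026 for all genes, and with quantile normalisation it was 24 higher and 30 lower. At an unadjusted p under 0.05, 1 chaperone gene was higher, where all genes give 4.54%, and 6 were lower, where all genes give 5.10%. In 1 gene every Nkx6.1 sample lay above every bGAL sample, against 2.02% of all genes, and in 3 genes every Nkx6.1 sample lay below, against 1.91%. The precision allows a bound for part of the family, since the 95% interval of the difference lay within −1 to 1 for 25 of the 54 genes. The median standard error was 0.33 for these genes and 0.34 for all genes.

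**Figure D1:**
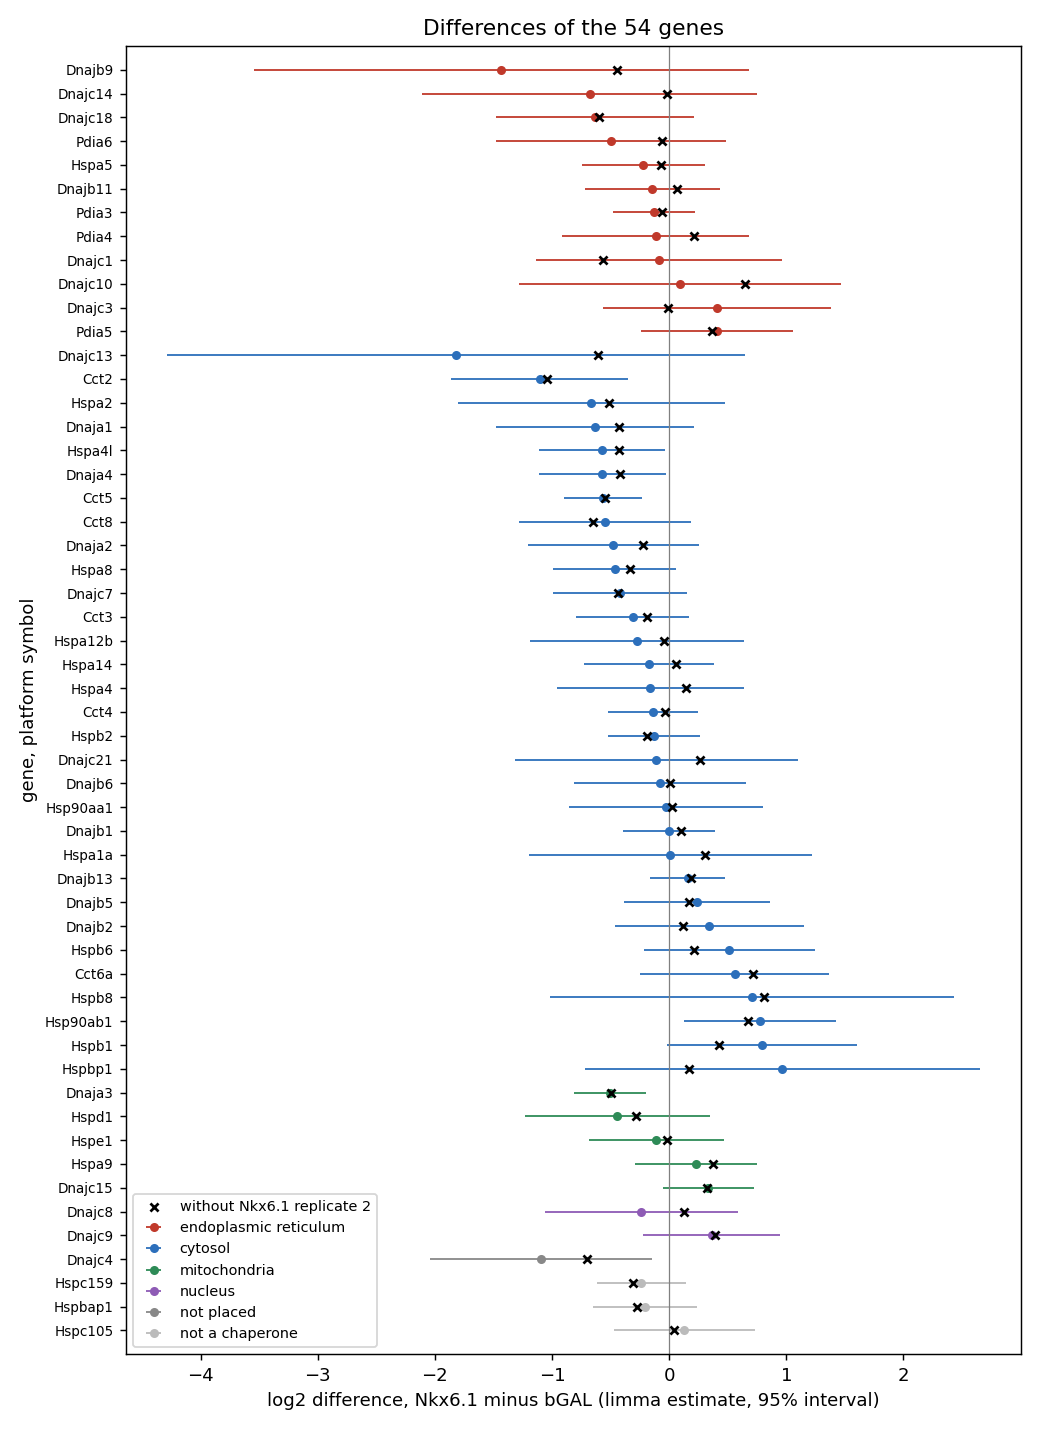
Difference between Nkx6.1 and bGAL samples of each of the 54 genes (x axis, log2 scale; dot, limma estimate; line, 95% interval; cross, estimate without Nkx6.1 replicate 2), grouped by compartment and named by the array's symbol. Most intervals cross 0, and 35 of the 54 estimates lie between −0.5 and 0.5. The widest intervals, those of Dnajb9 and Dnajc13, go with crosses far nearer to 0. This does not hold for every wide interval, since Hspb8 has an estimate of 0.71 and a cross at 0.81.

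In the ER set 3 genes were higher and 9 lower in the Nkx6.1 group, and the median difference of −0.14 was −0.040 without its second replicate and 0.0076 with array weights, a setting that weights each sample by how well it fits the rest. BiP (Hspa5), the central ER chaperone and sensor of unfolded protein, read 0.017, 0.15, 0.10, −0.12 and 0.34 in bGAL replicates 1 to 5 and −0.046, −0.72, −0.37, 0.54 and −0.017 in Nkx6.1 replicates 1 to 5. The groups overlapped, and the highest and the lowest of the 10 values were both Nkx6.1 samples. Its difference was −0.22 (95% interval −0.75 to 0.30, adjusted p = 0.685), and −0.072 without Nkx6.1 replicate 2.

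The disulfide isomerases, which form and rearrange disulfide bonds in secreted proteins, numbered 4. Pdia3 (ERp57), which works on glycoproteins with calreticulin and calnexin, was among the least variable members. Its values were 0.10, −0.063, 0.16, 0.28 and −0.025 in the bGAL samples and 0.0034, −0.31, 0.22, −0.11 and −0.0034 in the Nkx6.1 samples. The groups overlapped, and the difference was −0.13 (95% interval −0.48 to 0.22, adjusted p = 0.715). Pdia6 (P5), which also binds the stress sensors of the ER, read −0.054, −0.23, 0.18, 0.37 and −0.048 in the bGAL samples and 0.096, −2.19, 0.30, 0.048 and −0.51 in the Nkx6.1 samples. Its difference of −0.50 (adjusted p = 0.638) became −0.059 without Nkx6.1 replicate 2, the only sample below −1. Pdia4 (ERp72) turned sign when that replicate was left out, from −0.12 (adjusted p = 0.894) to 0.21, with a value of −1.48 in Nkx6.1 replicate 2 and values between −0.48 and 0.44 in the other samples. Its 2 probes gave differences of −0.27 and 0.035 over all samples. Pdia5 was the only isomerase with a higher mean in the Nkx6.1 group. It read −0.81, −0.39, −0.65, 0.11 and 0.33 in the bGAL samples and −0.11, 0.30, 0.34, 0.61 and −0.49 in the Nkx6.1 samples, a difference of 0.41 (adjusted p = 0.593), or 0.27 in array set 1 alone and 0.079 in array set 2 alone.

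The widest values of the ER set belonged to a J-domain partner of BiP. Dnajb9 (ERdj4), a BiP cofactor and a known target of the unfolded protein response, read 0.86, 0.61, 1.14, −0.17 and −0.50 in the bGAL samples and 0.23, −4.98, 0.12, −0.12 and −0.47 in the Nkx6.1 samples. One value far below the others thus carried the mean, and the difference of −1.43 (95% interval −3.55 to 0.68, adjusted p = 0.580) was −0.45 without that sample. Dnajc3 (p58IPK), which brings unfolded protein to BiP, had the opposite extreme, 2.15 in Nkx6.1 replicate 2 against −0.29 to 0.62 elsewhere, and its difference went from 0.41 (adjusted p = 0.685) to −0.0068 without it. Dnajb11 (ERdj3), another cofactor that carries substrates to BiP, differed by −0.15 (adjusted p = 0.808), and by 0.063 without that sample. The remaining ER members, Dnajc1, Dnajc10, Dnajc14 and Dnajc18, are membrane or luminal J-domain proteins outside the rule for named genes. Their differences were −0.086, 0.091, −0.68 and −0.63. Without Nkx6.1 replicate 2 they were −0.56, 0.65, −0.021 and −0.59. Dnajc10 (ERdj5), a J-domain reductase, had 2 probes, and the second gave values in bGAL replicates 2 and 4 and Nkx6.1 replicates 3, 4 and 5 only, so its mean does not rest on the same probes in every sample. The first probe differed by −0.35 and the second by 1.99.

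The 3 ER genes with an ER stress element or its short form, Hspa5, Dnajc3 and Dnajb11, thus had differences of −0.22, 0.41 and −0.15, each with an interval that included 0. Neither Hsp90b1 (GRP94), the ER member of the HSP90 family, nor Hspa1b, Hsph1, Cct6b or Cct7 was analysed here.

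**Figure D2:**
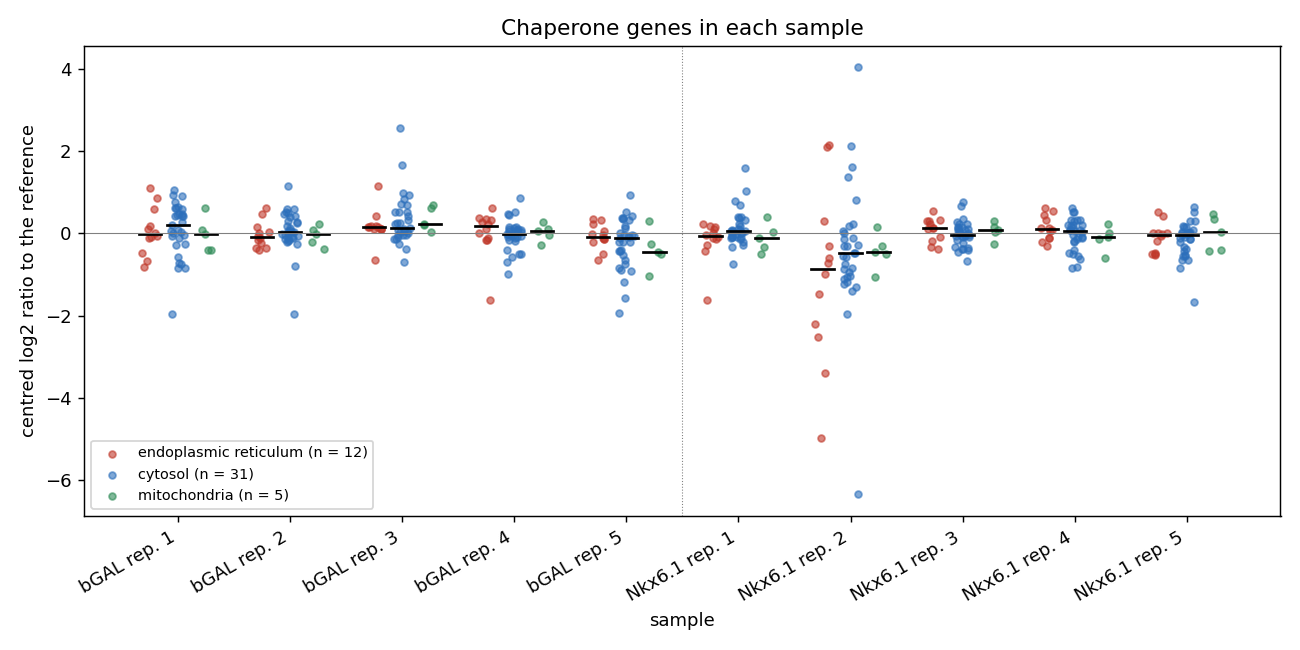
Centred log2 ratios (y axis) of the 12 ER, 31 cytosolic and 5 mitochondrial chaperone genes in each of the 10 samples (x axis); each dot is a gene and each bar the median of its compartment in that sample. The dots of 9 samples lie mostly within 1 of 0, whereas those of Nkx6.1 replicate 2 run from −6.34 to 4.03 and its ER and cytosolic bars lie lowest.

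Taking all 54 genes, Nkx6.1 replicate 2 had a median of −0.50, and 17 genes below −1 and 6 above 1. No other sample had more than 5 genes beyond 1 in either direction. It was the lowest of all samples for 25 of the 54 genes (46.3%, against 28.6% of all genes) and the highest for 7 (13.0%, against 25.8% of all genes). The genes that it held lowest included 8 of the 12 ER members, 13 of the 31 cytosolic members and 7 of the 9 HSP70 genes. In the same sample the mean of the 12 islet endocrine genes measured (of 13 listed, hormones and granule proteins such as Ins1, Iapp and Chga) was 2.11, while Nkx6.1 replicates 1, 3, 4 and 5 gave −0.52 to 0.04 and the bGAL samples −0.35 to 0.45. Their part in the chaperone values was not tested.

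The cytosolic HSP70 and HSP90 genes pointed in both directions. Hspa8 (Hsc70), the constitutive HSP70 of most cells, read 0.20, −0.11, 0.33, 0.52 and −0.054 in the bGAL samples and −0.094, −0.83, 0.055, 0.054 and −0.64 in the Nkx6.1 samples. It was lower on average by 0.47, with overlapping groups, a 95% interval of −0.99 to 0.056 and an adjusted p of 0.544. Hspa1a, the heat-inducible HSP70, varied from −1.97 to 0.93 within the bGAL group alone, and its difference was 0.0074 (95% interval −1.20 to 1.22), so these arrays set only a wide bound on it. Hspa4l, an HSP110 relative that exchanges nucleotide on HSP70, was lower by 0.57 (unadjusted p = 0.039, adjusted p = 0.508). Its 2 probes disagreed, with 0.087 for a probe that sat at a floor value in several samples and −1.23 for the other. Hsp90ab1 (HSP90β), the constitutive cytosolic HSP90, was the member higher at an unadjusted p under 0.05. Its values were −0.74, −0.79, −0.14, 0.16 and −0.52 in the bGAL samples and 0.69, 0.81, −0.41, 0.14 and 0.63 in the Nkx6.1 samples. Nkx6.1 replicates 1, 2 and 5 lay above every control, whereas replicates 3 and 4 lay among the controls, and the difference was 0.78 (95% interval 0.13 to 1.43, unadjusted p = 0.023, adjusted p = 0.482), with 1.24 in array set 1 alone and 0.14 in array set 2 alone. Its inducible relative Hsp90aa1 (HSP90α) differed by −0.026 (95% interval −0.85 to 0.80).

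Small heat shock proteins had the highest median of the 6 families (CCT, DNAJ, HSP70, HSP90, small heat shock proteins and disulfide isomerases). It was 0.61 over 4 genes, of which 3 were higher. This rank did not hold without Nkx6.1 replicate 2, where the median was 0.32 against 0.35 for the 2 HSP90 genes. In array set 1 alone the medians were 0.12 and 0.79, and in array set 2 alone 0.51 and 0.24. Hspb8, outside the rule for named genes, ran from −1.95 to 2.56 within the bGAL group. Hspb1 (HSP27), which holds unfolded proteins and acts on actin filaments, read −0.28, −0.13, −0.097, −0.094 and −0.099 in the bGAL samples and 0.094, 2.11, 0.14, 0.63 and 0.30 in the Nkx6.1 samples. It was the member in which every Nkx6.1 sample lay above every bGAL sample. The difference was 0.79 ± 0.36 (SE, adjusted p = 0.517), 1.73-fold higher, and 0.43 without Nkx6.1 replicate 2, which supplied the highest value. Hspb6 (HSP20) read −0.11, −0.084, −0.39, −0.15 and 0.17 in the bGAL samples and −0.27, 1.60, 0.092, 0.084 and 0.51 in the Nkx6.1 samples. The groups overlapped, and its difference of 0.51 (adjusted p = 0.574) was 0.21 without the same replicate and −0.17 within array set 1.

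**Figure D3:**
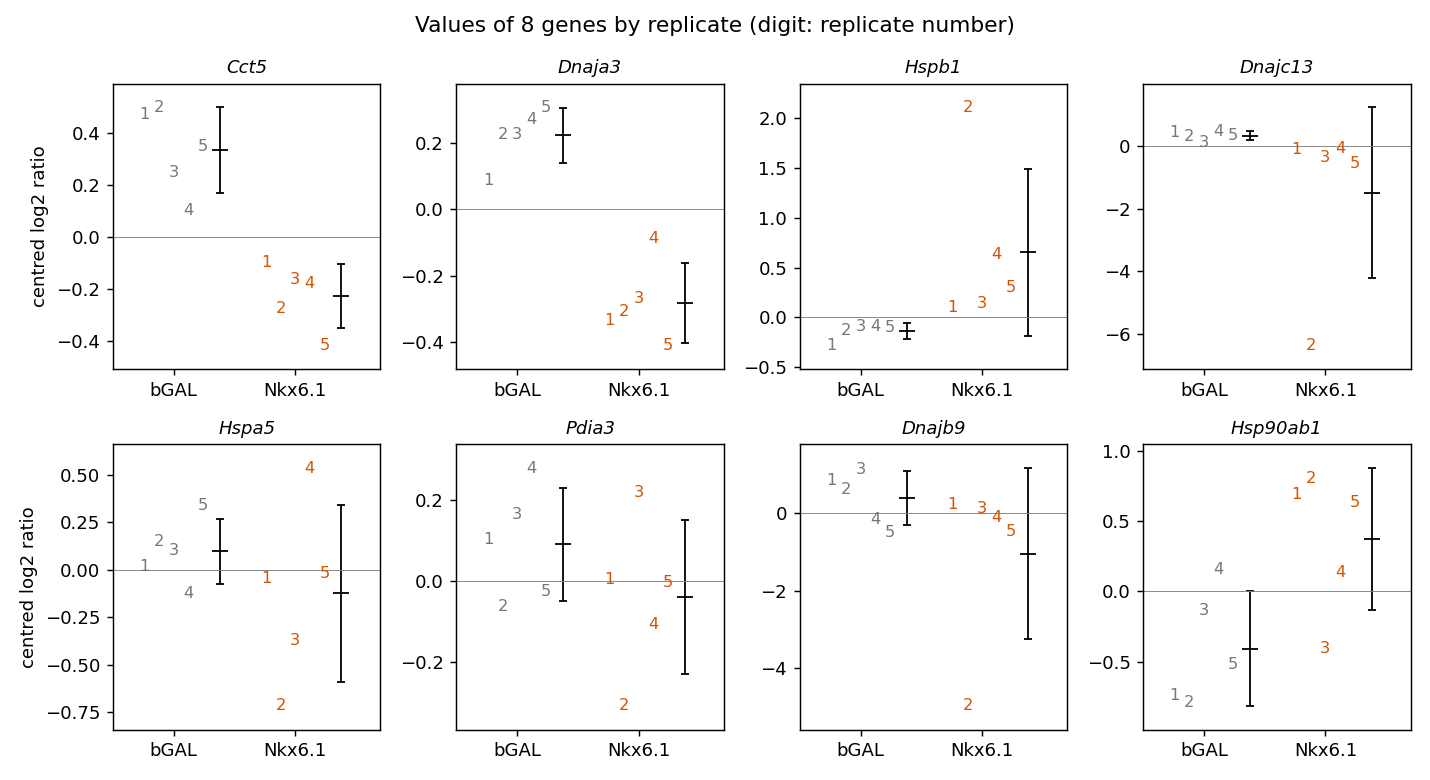
Centred log2 ratios (y axis, a scale of its own in each panel) of 8 chaperone genes in the bGAL and Nkx6.1 samples; each digit is a sample's replicate number, and the bar gives the mean ± SD of the 5 samples. Cct5, Dnaja3, Hspb1 and Dnajc13 have groups that do not overlap, and the digit 2 lies far from the other Nkx6.1 digits in Hspb1, Dnajc13 and Dnajb9.

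The CCT subunits gave the lowest median of these families, −0.43 over 6 subunits, of which 5 were lower, as they also were with quantile normalisation, the array set as a term or array weights. Cct5 (subunit ε) had the smallest p of all members. It read 0.47, 0.50, 0.25, 0.10 and 0.35 in the bGAL samples and −0.10, −0.28, −0.17, −0.18 and −0.42 in the Nkx6.1 samples. Every Nkx6.1 sample lay below every control, by a difference of −0.56 ± 0.15 (SE, 95% interval −0.89 to −0.23, adjusted p = 0.296), 1.48-fold lower, with −0.49 in array set 1 alone and −0.36 in array set 2 alone. Cct2 (subunit β) read 0.43, 0.59, 0.42, −0.18 and 0.38 in the bGAL samples and 0.31, −1.03, −0.68, −0.82 and −1.67 in the Nkx6.1 samples. Its values followed the array set as much as the virus, since the lone control of set 2 was the lowest control and the lone Nkx6.1 sample of set 1 was the highest of its group. The difference was −1.11 (adjusted p = 0.384), with −0.14 in array set 1 alone and −0.87 in array set 2 alone, and its 2 probes gave −1.76, for one that sat at a floor value in several samples, and −0.46. Cct8, Cct3 and Cct4 (subunits θ, γ and δ) differed by −0.54, −0.31 and −0.14, with adjusted p from 0.568 to 0.726. Cct6a (subunit ζ) went the other way, with a difference of 0.56 (adjusted p = 0.575). One sample, Nkx6.1 replicate 1, read 1.58 against −0.84 to 0.24 in the other samples, and the difference was 0.25 without it. The subunits, whose proteins are assembled into one ring, thus did not all have the same sign, and Tcp1 (subunit α), which the letters of the rule do not take in, differed by −0.041.

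The DNAJ family was the most numerous. Of the 23 DNAJ genes of all compartments 7 were higher and 16 lower, with a median of −0.15, which became 11 higher and 12 lower both with quantile normalisation and without Nkx6.1 replicate 2. Dnaja1, a partner of Hsc70, read 0.94, 0.53, 0.83, 0.094 and −0.85 in the bGAL samples and 0.18, −1.17, −0.094, −0.22 and −0.34 in the Nkx6.1 samples. The control samples alone spanned the range of all but 1 of the Nkx6.1 values, and the difference was −0.64 (adjusted p = 0.565). Dnaja4, of the same class, was lower by 0.57 (unadjusted p = 0.041, adjusted p = 0.508). Dnajb1 (HSP40), the heat-inducible partner of HSP70, differed by −0.0018 with a 95% interval of −0.40 to 0.39, one of the tighter bounds among the members. Dnajc4, whose compartment was not assigned, read 0.71, −0.037, 0.49, 0.37 and 1.01 in the bGAL samples and 0.014, −2.17, −0.10, −0.014 and −0.68 in the Nkx6.1 samples. Its groups overlapped through bGAL replicate 2, and the difference was −1.10 (unadjusted p = 0.027, adjusted p = 0.489), or −0.70 without Nkx6.1 replicate 2. Dnajc13 (RME-8), a J-domain protein of endosomes, was named after its values were seen, because every Nkx6.1 sample lay below every control. It read 0.42, 0.30, 0.099, 0.45 and 0.33 in the bGAL samples and −0.12, −6.34, −0.37, −0.099 and −0.56 in the Nkx6.1 samples. The value of −6.34 was the lowest of any member in any sample, and the difference of −1.82 (adjusted p = 0.568) was −0.61 (adjusted p = 0.170) without it.

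Among the mitochondrial chaperones, which fold proteins after import, 2 genes were higher and 3 lower. Dnaja3 (Tid1), the J-domain partner of mitochondrial HSP70, had groups that did not overlap and a similar difference in both array sets. It read 0.087, 0.22, 0.23, 0.27 and 0.31 in the bGAL samples and −0.34, −0.31, −0.27, −0.087 and −0.41 in the Nkx6.1 samples. All Nkx6.1 values lay below all controls, and Nkx6.1 replicate 2 was not extreme. The difference was −0.50 ± 0.14 (SE, 95% interval −0.81 to −0.20, adjusted p = 0.313), 1.42-fold lower, with −0.55 in array set 1 alone and −0.54 in array set 2 alone. Its partner Hspa9 (mortalin) differed by 0.23 (adjusted p = 0.676). Dnajc15, a J-domain protein of the inner membrane, read −0.026, −0.38, 0.026, −0.28 and −0.51 in the bGAL samples and 0.39, 0.16, 0.072, −0.14 and 0.03 in the Nkx6.1 samples. These groups overlapped only through Nkx6.1 replicate 4, and the difference was 0.34 (adjusted p = 0.544).

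The chaperonin pair with the shared promoter did not follow one another in every sample. Hspd1 read 0.62, 0.07, 0.60, −0.035 and −1.05 in the bGAL samples and 0.035, −1.05, 0.039, −0.60 and −0.43 in the Nkx6.1 samples. Hspe1 read −0.40, −0.018, 0.69, 0.054 and −0.25 in the bGAL samples and −0.51, −0.46, 0.14, 0.018 and 0.34 in the Nkx6.1 samples. In bGAL replicate 1 the first was among its highest values and the second among its lowest, and in Nkx6.1 replicate 5 the reverse held. Neither difference passed the test, at −0.44 (adjusted p = 0.613) for Hspd1 and −0.11 (adjusted p = 0.859) for Hspe1. All 5 genes with a match to the heat shock element had negative differences, from −0.64 for Dnaja1 to −0.11 for Hspe1. Of all 54 members 68.5% were lower, and of all genes 54.5%. Hspd1 and Hspe1 count separately here although they share the matched bases. None of the 5 passed the test, and with array weights Hspe1 turned to 0.050 while the other 4 kept their sign. Without Nkx6.1 replicate 2 the 5 differences stayed negative, from −0.43 for Dnaja1 to −0.017 for Hspe1, with −0.040 for Cct4. In that setting 29 of the 54 members were lower and 25 higher. The heat-inducible Hspa1a and Dnajb1 had windows without a match, and their differences were 0.0074 and −0.0018.

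Set side by side, the ER and cytosolic chaperones had the same median difference, −0.14 in both, with 3 higher and 9 lower in the ER and 10 higher and 21 lower in the cytosol. Without Nkx6.1 replicate 2 these medians were −0.040 and 0.0046. With quantile normalisation they were −0.12 and −0.030, with 5 higher and 7 lower in the ER and 14 higher and 17 lower in the cytosol. The ER mean was 0.030 ± 0.099 in the bGAL group and −0.22 ± 0.48 in the Nkx6.1 group (SD, n = 5 each), and by replicate it was 0.05, −0.04, 0.18, 0.02 and −0.07 in the bGAL samples and −0.17, −1.05, 0.09, 0.13 and −0.11 in the Nkx6.1 samples. The cytosolic mean was 0.037 ± 0.21 in the bGAL group and −0.098 ± 0.20 in the Nkx6.1 group. Sample by sample, the ER mean minus the cytosolic mean was −0.044, −0.097, −0.14, 0.061 and 0.19 in the bGAL samples and −0.30, −0.64, 0.11, 0.16 and 0.047 in the Nkx6.1 samples. Its group means, −0.0068 ± 0.13 and −0.12 ± 0.34 (SD, n = 5 each), differed by −0.12, which is smaller than either the Nkx6.1 spread or the bGAL spread. Without Nkx6.1 replicate 2 the group difference was 0.010. Within the array sets it was −0.28 in set 1 and −0.14 in set 2, each with a lone sample on one side. No p is given for these lists, since their members were chosen with earlier results of these data known. The mitochondrial mean was −0.022 ± 0.26 in the bGAL group and −0.12 ± 0.19 in the Nkx6.1 group.

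**Figure D4:**
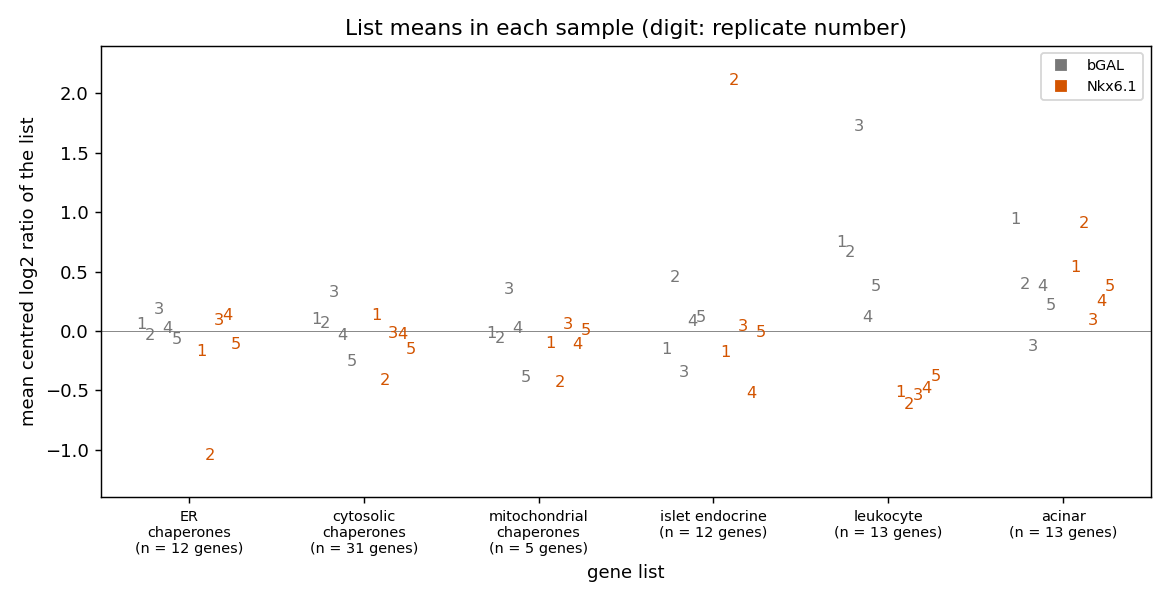
Mean centred log2 ratio (y axis) of the ER, cytosolic and mitochondrial chaperones and of the endocrine, leukocyte and acinar marker genes in each sample; each digit is a replicate number, grey for bGAL and orange for Nkx6.1. The chaperone means of both groups intermix around 0 apart from Nkx6.1 replicate 2, whose ER mean of −1.05 is far below the others. The leukocyte means of the groups do not overlap, whereas the medians of the same genes, not drawn, do.

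Other genes of protein folding, listed by role, did not pass the test either. Of 38 genes of the unfolded protein response and ER quality control 29 were measured, with 10 higher, 19 lower and 0 past the threshold, and a median of −0.15. Calr (calreticulin), the lectin chaperone that works with Pdia3, was higher by 1.14 (adjusted p = 0.508), with a value of 2.70 in Nkx6.1 replicate 2 and a difference of 0.68 without it. Edem2, which marks misfolded glycoproteins for degradation, Uggt1, which reglucosylates glycoproteins that are not yet folded, and Txndc5, a disulfide isomerase outside the Pdia symbols, differed by −0.49, −0.53 and −0.93, with adjusted p from 0.52 to 0.55. Without Nkx6.1 replicate 2, where Txndc5 read −2.78, these differences were −0.37, −0.46 and −0.43. Of 32 heat shock factors and cochaperones 22 were measured, with 11 higher, 11 lower and 0 past the threshold, and a median of −0.0044. Serpinh1 (HSP47), the collagen chaperone of the ER, came nearest to the threshold. It read −0.60, −0.52, −0.063, −0.15 and −0.53 in the bGAL samples and 0.23, 0.80, 0.063, 0.70 and 0.41 in the Nkx6.1 samples. All Nkx6.1 values lay above all controls, with a difference of 0.82 ± 0.20 (SE, adjusted p = 0.249) that was 0.66 in array set 1 alone and 0.65 in array set 2 alone. Cryab (αB-crystallin), a small heat shock protein like Hspb1, read −0.29, −0.039, −0.44, −0.42 and −0.14 in the bGAL samples and 0.17, 1.05, 0.46, 0.039 and 0.22 in the Nkx6.1 samples. Here too the groups did not overlap, with a difference of 0.65 (adjusted p = 0.428). Hsf1, the main heat shock factor, and Chordc1, an HSP90 cochaperone, were higher by 0.92 and 1.09 with overlapping groups (adjusted p = 0.428 and 0.492).

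Markers of other cells moved with the groups to a different degree. The 13 measured leukocyte markers (of 18) were all lower, with sample means of 0.11 to 1.73 in the bGAL group and −0.62 to −0.38 in the Nkx6.1 group. The 9 stellate and fibroblast markers (of 12) had means of −0.10 to 2.36 and −0.044 to 0.37. The 13 acinar markers (of 21) had −0.13 to 0.93 and 0.087 to 0.90. The 6 duct markers (of 9) had −0.46 to −0.044 and −0.22 to 0.22, and the 4 endothelial markers (of 10) −1.43 to 9.0 and −1.43 to 0.066. The leukocyte sample medians overlapped, from −0.0061 to 0.84 in the bGAL group and from −0.52 to 0.12 in the Nkx6.1 group. A few very large values largely carried the highest bGAL means of the leukocyte, stellate, acinar and endothelial lists. The leukocyte marker Cd163 read 15.5 in bGAL replicate 3. Dcn read 18.7 in bGAL replicate 3 and Reg3a 13.1 in bGAL replicate 1. Emcn and Tie1 read 20.5 and 16.6 in bGAL replicate 5. The stellate and fibroblast sample medians ran only from −0.20 to 0.30 in the bGAL group and from −0.27 to 0.14 in the Nkx6.1 group. The 15 mitotic genes (of 16) ran from −0.98 to −0.36 in the bGAL group and from 0.074 to 0.83 in the Nkx6.1 group, with 3 past the threshold, all higher. Because values are centred, no marker can be called absent. The part of these cells in the chaperone values was not tested.

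The members outside the rule for named genes numbered 24, with 8 higher and 16 lower, differences from −1.82 (Dnajc13) to 0.97 and a smallest adjusted p of 0.565. Genes with too few values to test numbered 7: Pdia2, a pancreatic disulfide isomerase, Dnajc2, Dnajc6, Dnajc11, Dnajc17, Hspa12a and Hspb3, each measured in at most 2 bGAL samples.

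The call on the family changed under one setting. With sample weights estimated by limma, which gave Nkx6.1 replicate 2 the lowest weight of 0.11, 4.31% of all genes passed, and 3 of the 54 chaperone genes did (5.56%), namely Cct5 (difference −0.63, adjusted p = 0.025), Dnaja3 (−0.48, adjusted p = 0.038) and Cct2 (−1.37, adjusted p = 0.038), all lower in the Nkx6.1 group. That share lies near the share of all genes. Weights were also low for bGAL replicate 5 (0.46), Nkx6.1 replicate 1 (0.61) and bGAL replicate 4 (0.69), against 1.31 or more in the remaining arrays. Only Nkx6.1 replicate 1 and bGAL replicate 4 tell the group from the array set. Within array set 1, Cct2 differed by −0.14, Cct5 by −0.49 and Dnaja3 by −0.55. With the array set as a term 0 chaperone genes passed. The part of the array set in the 3 calls was not tested.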

How the data were processed

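Per the labels, 500 ng of total islet RNA was amplified, labelled with Cy5 and hybridised with Cy3-labelled rat reference RNA on Operon rat 27K arrays, without a dye swap. The authors' deposited values are log2 ratios, and how they were corrected and filtered was not given in the sources used. The 17744 probes measured in all 10 samples each had a median of 0 across them (tolerance 0.001), which shows a centring by probe, and the ratio's direction was not stated. Of 26962 probes besides 22 controls, 15807 had 1 symbol, 0 several and 11155 none in the platform annotation, and 3713 symbols were updated through a unique RefSeq GRCr8 synonym. Probes of a gene were averaged, and genes with at least 3 values per group were kept. Nkx6.1 minus bGAL was tested with two-sided limma 3.58.1 (eBayes after lmFit, R 4.3.3), adjusted by Benjamini-Hochberg over all 9974 genes, and the procedure was tested on simulated data. The number of arrays limits the precision.

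Named genes were all members past the threshold, the 6 with the smallest p in each direction, and 28 genes fixed by name, including the Cct subunits. Of these 28, 5 were not among the members analysed. The 4 genes with the smallest p of each neighbouring list were named as well. Members, lists and rules were chosen with earlier results of these data known. Alternatives were quantile normalisation, the array set as a term or within sets, a replicate block, array weights, 2 other filters on missing values, the most variable probe, leaving out floored probes (the same value in 3 or more samples) or values above 8 in size, current symbols, and leaving out each sample. Tables were made with pandas 2.3.3 and numpy 2.4.6, and plots with matplotlib 3.10.9, in Python 3.11.15.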

Additional observations from a re-analysis of the deposited data

Results flagged for a closer look

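In the groups of 5 samples, 8 of 84 tests found one value whose gap to its nearest neighbour exceeded 0.710 of the group's range, where chance alone gives about 1 in 20. Of these, 4 concerned Nkx6.1 replicate 2. It read 2.11 for Hspb1 (others of its group 0.094 to 0.63), −1.48 for Pdia4 (others −0.10 to 0.44), −4.98 for Dnajb9 (others −0.47 to 0.23) and −1.05 for the mean of the ER chaperones (others −0.17 to 0.13). Nkx6.1 replicate 1 read 1.58 for Cct6a, against −0.30 to 0.22 in the others. Among the bGAL samples, replicate 1 read −0.28 for Hspb1 (others −0.13 to −0.094), replicate 4 read −0.18 for Cct2 (others 0.38 to 0.59) and replicate 5 read −0.22 for Cct4 (others 0.024 to 0.075).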

How the results depend on the processing

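The count of chaperone genes past the threshold was 0 under the settings tried other than array weights, which gave 3, and that of the neighbouring genes was 0 other than with array weights, which gave 1 (Serpinh1, difference 0.75, adjusted p = 0.044). Over all genes the count of 15 became 27 with quantile normalisation (23 rose, 4 fell), 3 with the array set as a term, 430 with array weights (206 rose, 224 fell) and 2 to 36 when single samples were left out, the highest without Nkx6.1 replicate 2. Several differences turned sign, all near 0 under the main setting except that of Dnajc3, which was 0.41 there. With quantile normalisation they were those of Pdia4 (0.088), Dnajb11 (0.024), Hsp90aa1 (0.022) and Dnajb1 (0.066). With the array set as a term they were those of Dnajc3 (−0.086) and Hsp90aa1 (0.35). With array weights they were those of Pdia4 (0.28), Dnajb11 (0.092), Dnajb1 (0.19) and Hspe1 (0.050). The cause was not tested. With single samples left out, the ranges were −0.45 to 0.30 for Hspa1a, −0.30 to 0.16 for Hsp90aa1, −0.22 to 0.060 for Hspe1, −0.060 to 0.10 for Dnajb1, −0.27 to 0.21 for Pdia4, −0.23 to 0.063 for Dnajb11 and −0.0068 to 0.60 for Dnajc3. The median of the ER chaperones ranged from −0.24 to −0.040 and that of the cytosolic ones from −0.24 to 0.0046. Deviations of same-numbered samples of the 2 groups correlated at −0.10 to 0.18. Of the 5 bGAL samples 2 were closest to the Nkx6.1 sample of their own number. With so few samples these values did not settle whether the shared replicate numbers pair the samples. With a replicate block limma called 0 genes, with 811 genes and 5 members at an unadjusted p under 0.05. Of the 380 values of named genes with a sample left out, 18 turned sign and 362 kept their direction and their side of the threshold.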
